A study of Mus musculus with 2 samples.

Results

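The ligands of the epidermal growth factor (EGF) family and their ErbB receptors were examined in endothelial cells of the normal mouse brain. The members were 10 genes, chosen by name as a family, with earlier results of these data known. They are the ligand genes *Tgfa*, *Hbegf*, *Areg*, *Ereg*, *Btc*, *Egf* and *Nrg1* and the receptor genes *Egfr*, *Erbb2* and *Erbb3*. Of these, 9 had at least 1 probe set annotated to a single symbol, 20 probe sets in all of 45101 on the array. No probe set was listed for *Areg*, which was therefore not analysed here. The cells came from brain vasculature of C57BL/6 mice and were sorted by flow cytometry into CD31+ Prom1+ and CD31+ Prom1- populations, with CD31 marking endothelium and Prom1 being mouse CD133. The RNA of each population was hybridized to 1 Affymetrix Mouse Genome array, so there are 2 arrays in all. Both populations came from normal tissue with no treatment named. The labels and methods used here give neither the age of the mice nor how many were pooled.

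The ligands of this family are made as membrane-anchored precursors. Metalloproteases of the ADAM family cut them at the cell surface, and the released ligand acts on the same cell or on its neighbors. TGF-alpha, amphiregulin and EGF bind the EGF receptor, heparin-binding EGF-like growth factor, betacellulin and epiregulin bind the EGF receptor and ErbB4, and neuregulins bind ErbB3 and ErbB4. ErbB2 has no known ligand of its own and signals as the partner of another receptor, whereas ErbB3 has little kinase activity and also needs a partner. *EGFR* is frequently amplified in human glioblastoma, and in the vasculature the family is known for shed ligands that act between endothelium, smooth muscle and glia.

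The authors deposited log2 values centered on the median of each array, and signals are given here as multiples of that median. A signal under 1.67 times the median was treated as not measured and was raised to this floor before a ratio was taken. It stands for 100 on the scale where the authors had set the target signal to 500, averaged over the arrays. Their trimmed means were 9.94 and 6.81 times the median in the arrays labelled Prom1+ and Prom1-. The floor thus lies under 100 on the first array and over 100 on the second. A fold of at least 2 between floored signals was counted, and where 1 of the signals lay under the floor the fold is a lower bound. With 1 array per population no difference has a replicate error, no test was made, and the number of arrays limits the precision. Probe sets of 1 gene differed in log2 ratio with an SD of 0.54 over 3930 genes. This is disagreement between probe sets on the same arrays. It leaves out error that all probe sets of an array share, from sorting to hybridization, and leaves the spread between animals unknown. For genes measured on both arrays the median log2 ratio was 0.69, so that a typical gene was higher in the array labelled Prom1+. *Pecam1*, which encodes CD31, had 69.2 and 48.2 times the median in the arrays labelled Prom1+ and Prom1-. *Prom1* had 159 times in the array labelled Prom1+, against 196 times in the array labelled Prom1-. The difference of -0.30 on the log2 scale is smaller in size than the SD between probe sets of 1 gene, and the arrays are called by their labels throughout.

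The transcripts of *Tgfa* and *Erbb2* were higher in the array labelled Prom1+, those of *Hbegf* were measured on both arrays with a smaller difference, and those of *Egfr* and *Ereg* reached the floor only in the array labelled Prom1-. The transcripts of *Btc*, *Egf*, *Nrg1* and *Erbb3* were under the floor on both arrays. In such bulk samples fewer cells of a type and less RNA per cell cannot be told apart. By gene, 2 of 9 were at least 2-fold higher, where 16.7% of 18194 genes were, and 0 of 9 were at least 2-fold lower, where 2.83% were. By probe set, 2 of 20 were at least 2-fold higher and 0 of 20 at least 2-fold lower, against 12.9% and 2.51% of all probe sets. These shares are near those of all genes and probe sets, so the counts set nothing apart about the family. The median log2 ratio was 0 over the 9 genes and 0 over all genes, because genes under the floor on both arrays are set to 0.

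**Figure D1:**
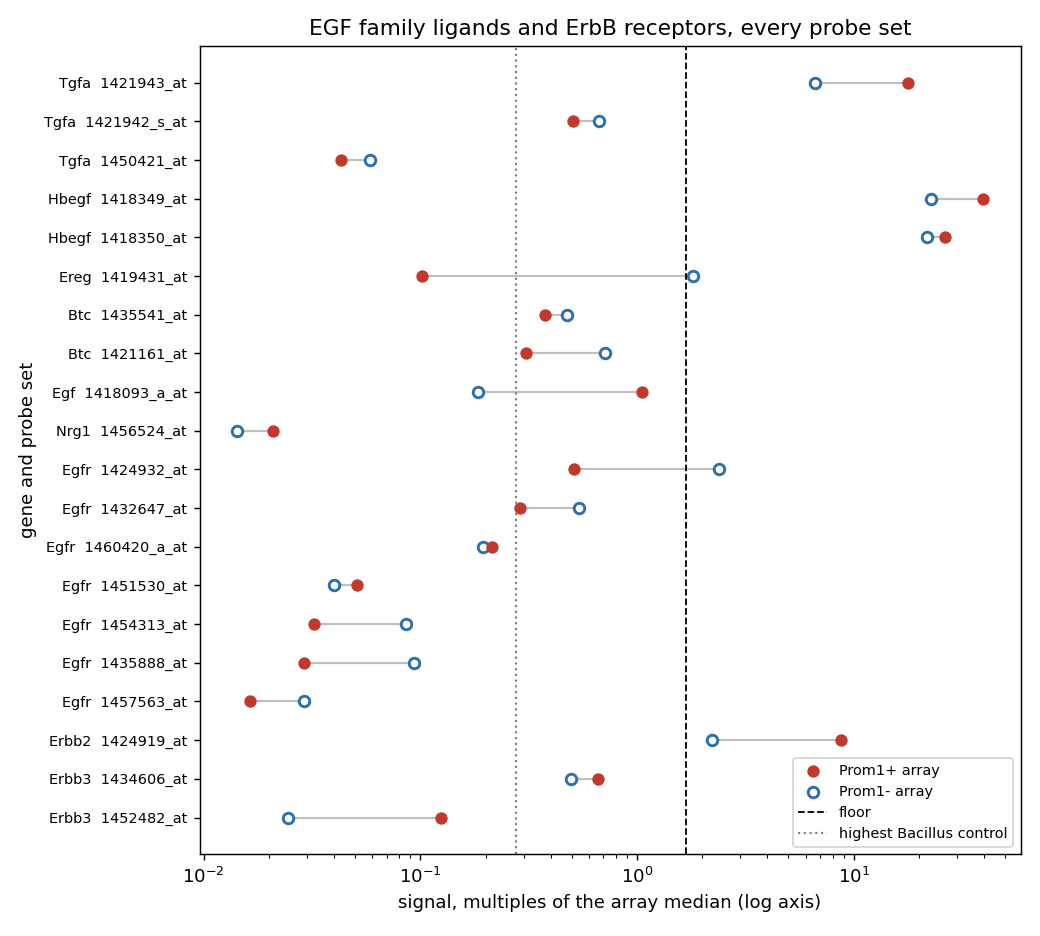
Signal of every probe set of the family in the array labelled Prom1+ (filled red) and in the array labelled Prom1- (open blue), in multiples of the array median on a log axis. The dashed line is the floor of 1.67 and the dotted line the highest signal, 0.276, of Bacillus controls, bacterial sequences that mouse RNA should not bind. Of the 20 probe sets, 4 lie right of the floor on both arrays, 2 in the array labelled Prom1- only and 14 on neither.

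*Tgfa* encodes transforming growth factor alpha, a ligand of the EGF receptor. Its probe set 1421943_at had 17.8 times the median on the array labelled Prom1+, against 6.64 times in the array labelled Prom1-. Both signals were well over the floor, and that on the array labelled Prom1+ was 2.69-fold higher. For the 1000 probe sets closest to it in brightness the median fold was 1.84, and 41.2% of them were at least 2-fold higher. Another probe set of *Tgfa*, 1421942_s_at, had 0.506 times the median on the array labelled Prom1+, against 0.669 times in the array labelled Prom1-. The third, 1450421_at, had 0.0432 and 0.0585 times in the arrays labelled Prom1+ and Prom1-. Both were under the floor on both arrays, so the difference in *Tgfa* rests on 1 of its 3 probe sets.

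*Erbb2*, the co-receptor without a known ligand, had a single probe set, 1424919_at. Its signal was 8.77 times the median on the array labelled Prom1+, against 2.23 times in the array labelled Prom1-, a 3.94-fold higher value. The median fold of similarly bright probe sets was 1.68, and 38.0% of them were at least 2-fold higher. The lower of the signals of *Erbb2* lay close to the floor. The log2 ratio of *Erbb2* exceeded the median of the genes measured on both arrays by 1.29, and that of *Tgfa* exceeded it by 0.73. That median was 0.69, while similarly bright probe sets had medians of 0.75 beside *Erbb2* and 0.88 beside *Tgfa*. The SD of 0.54 between probe sets of a gene does not measure the error of a difference between the populations.

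Because *Tgfa* and *Erbb2* were the members that were at least 2-fold higher, the sequences around their starts are shown, from RefSeq on GRCm38.p6. The windows run from 250 bases before the annotated start to 50 after it, 5′ to 3′ on the plus strand, at chr6:86194972-86195271 and chr11:98412234-98412533. CpG dinucleotides are in capitals.
Tgfa: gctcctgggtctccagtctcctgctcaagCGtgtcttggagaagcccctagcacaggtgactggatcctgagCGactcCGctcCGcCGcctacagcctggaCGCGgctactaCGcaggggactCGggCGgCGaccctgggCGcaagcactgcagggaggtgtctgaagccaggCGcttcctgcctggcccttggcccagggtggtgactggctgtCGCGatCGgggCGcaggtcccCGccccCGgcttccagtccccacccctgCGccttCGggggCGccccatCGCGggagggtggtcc
Erbb2: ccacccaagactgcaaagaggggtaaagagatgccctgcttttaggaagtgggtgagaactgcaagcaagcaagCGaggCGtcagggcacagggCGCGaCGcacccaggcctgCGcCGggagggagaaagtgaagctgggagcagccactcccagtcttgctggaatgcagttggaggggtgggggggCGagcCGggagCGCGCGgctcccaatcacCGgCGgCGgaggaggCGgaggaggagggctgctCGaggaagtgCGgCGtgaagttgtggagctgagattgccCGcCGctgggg
The *Tgfa* window held 24 CpG and the *Erbb2* window 21. Over 32851 windows of this length the median was 7, with at least 24 in 20% and at least 21 in 24.8%. A GC box (GGGCGG on either strand) occurred 2 times in the *Tgfa* window and 0 times in the *Erbb2* window, and at least 1 occurred in 35.7% of all windows. These are descriptions of the letters, and binding or methylation was not measured.

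*Hbegf* encodes heparin-binding EGF-like growth factor, which also serves as the receptor for diphtheria toxin in human cells. It was measured by both of its probe sets on both arrays. Probe set 1418349_at had 39.6 times the median on the array labelled Prom1+, against 22.8 times in the array labelled Prom1-, 1.74-fold higher. Probe set 1418350_at had 26.5 times in the array labelled Prom1+, against 21.9 times in the array labelled Prom1-, 1.21-fold higher. Neither passed the 2-fold rule. Similarly bright probe sets had median folds of 1.68 beside 1418349_at and 1.76 beside 1418350_at, so that *Hbegf* was near or under the general difference between the arrays. Its direction depended on the scaling. With both arrays set to the same trimmed mean, quantile normalization or loess, 1418350_at had log2 ratios of -0.27, -0.46 and -0.53, while 1418349_at stayed above 0 at 0.26, 0.11 and 0.06.

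The remaining ligands were at or under the floor. Epiregulin (*Ereg*), a ligand of the EGF receptor and ErbB4, had 0.102 times the median on the array labelled Prom1+, against 1.81 times in the array labelled Prom1-. The second value lies just over the floor, so only a bound of at least 1.08-fold lower can be given. Betacellulin (*Btc*) had 0.306 and 0.711 times in the arrays labelled Prom1+ and Prom1- by probe set 1421161_at. By 1435541_at it had 0.377 and 0.475 times in the arrays labelled Prom1+ and Prom1-. Pro-EGF (*Egf*) had 1.06 times in the array labelled Prom1+, against 0.184 times in the array labelled Prom1-. Neuregulin 1 (*Nrg1*), by the only probe set listed for it, had 0.0208 and 0.0142 times in the arrays labelled Prom1+ and Prom1-, under the highest Bacillus control signal of each array. No fold is given for *Btc*, *Egf* or *Nrg1*, since all of their signals were under the floor.

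*Ereg*, *Areg* and *Btc* are neighbors on mouse chromosome 5, in this order, with *Epgn* on the other side of *Ereg*. *Epgn*, which encodes the ligand epigen, had 0.157 times the median on the array labelled Prom1+, against 0.566 times in the array labelled Prom1-. Thus of the 3 genes of this cluster with a probe set, 1 reached the floor, and on 1 array only. The other family genes outside the list of members were likewise under the floor on both arrays by every probe set, namely the neuregulins *Nrg2*, *Nrg3* and *Nrg4* and the receptor *Erbb4*. The brightest probe set of *Nrg2* had 0.264 and 0.873 times the median in the arrays labelled Prom1+ and Prom1-, that of *Nrg4* 0.291 and 0.485 times, that of *Nrg3* 0.0283 and 0.134 times, and the probe set of *Erbb4* 0.0279 and 0.0367 times.

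*Egfr*, the receptor for EGF and TGF-alpha, had 7 probe sets, of which 6 were under the floor on both arrays. The exception, 1424932_at, had 0.514 times the median on the array labelled Prom1+, against 2.38 times in the array labelled Prom1-, at least 1.42-fold lower. The next brightest, 1432647_at, had 0.289 and 0.540 times in the arrays labelled Prom1+ and Prom1-. The others had 0.0164 to 0.215 times in the array labelled Prom1+ and 0.0291 to 0.195 times in the array labelled Prom1-, under the highest Bacillus control signal of each array. As deposited, 5 of the 7 values were lower and 2 higher in the array labelled Prom1+, with no fold given under the floor. *Erbb3*, the receptor for neuregulins, had 0.664 and 0.494 times in the arrays labelled Prom1+ and Prom1- by 1434606_at, and 0.124 and 0.0246 times by 1452482_at. Of the 4 ErbB receptors, *Erbb2* alone was measured on both arrays.

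**Figure D2:**
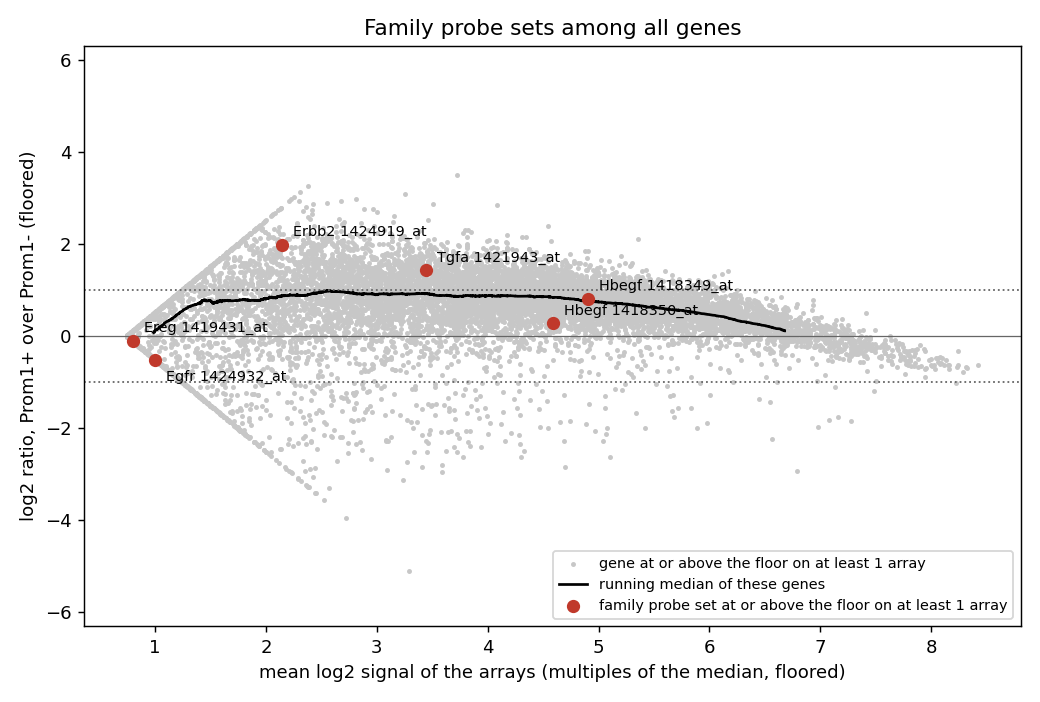
Log2 ratio of the array labelled Prom1+ over the array labelled Prom1- against mean log2 signal (multiples of the array median), after raising signals to the floor. Grey points are the 10793 genes that reached the floor on either array, with their running median as a black line, dotted lines mark 2-fold, and red points are the 6 family probe sets that reached the floor. *Erbb2* and *Tgfa* lie above the line, both *Hbegf* probe sets near or below it, and *Ereg* and *Egfr* sit on the lower edge that the floor sets.

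The ratios depended on how the arrays were scaled. *Erbb2* was at least 2-fold higher under every scaling tried, with log2 ratios of 1.16 to at least 2.90. *Tgfa* ran from 0.52 to 2.45 and was under 2-fold with the same trimmed mean, at 0.88, with quantile normalization, at 0.68, and with loess, at 0.52. The median log2 ratio of the genes measured on both arrays moved as well, and it was 0.16 with the same trimmed mean, 0.10 with quantile normalization, 0.03 with loess and 1.70 with the hybridization controls, bacterial transcripts added to every sample, set equal. Over all genes, 3.24% to 47.7% were at least 2-fold higher and 1.01% to 4.74% at least 2-fold lower under these scalings, with 4.75% higher and 4.74% lower for the same trimmed mean. Relative to this median, *Erbb2* was 1.13 to 1.35 higher and *Tgfa* 0.49 to 0.75 higher on the log2 scale over the 6 scalings. The log2 bounds ran from -0.38 to 0 for *Ereg* and from -0.78 to 0 for *Egfr*, where 0 stands for no measured signal on either array. *Hbegf* was 0.01 to 0.12 higher than the median by 1418349_at, and 1418350_at stood at -0.56 to -0.40 relative to it.

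**Figure D3:**
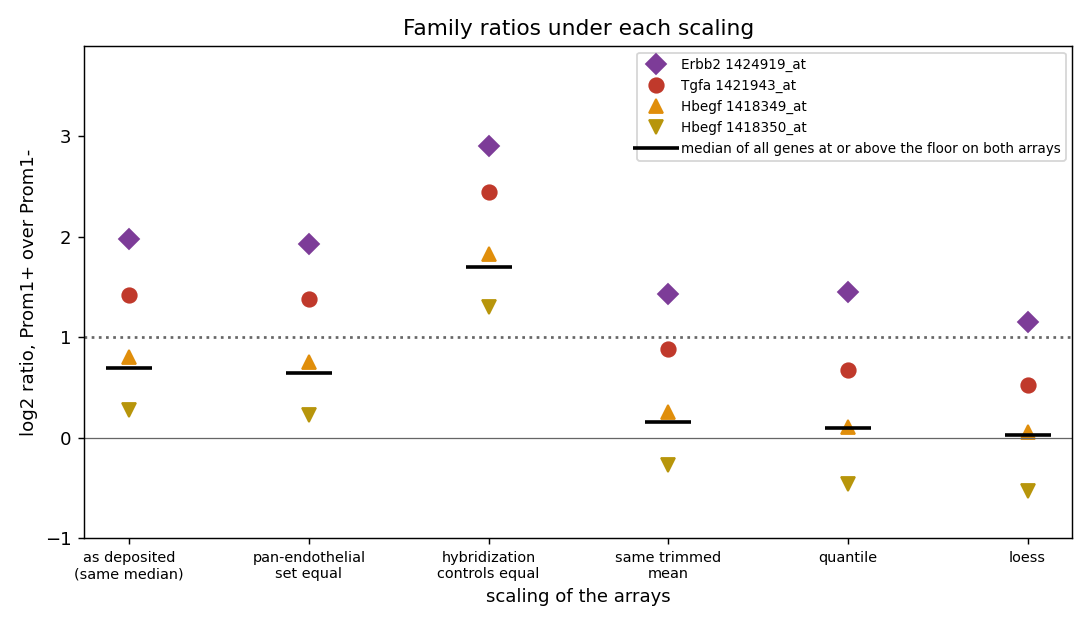
Log2 ratio of the array labelled Prom1+ over the array labelled Prom1- for the 4 family probe sets measured on both arrays as deposited, under that scaling and 5 others. Black bars are the median of all genes at or above the floor on both arrays, and the dotted line marks 2-fold. *Erbb2* stays above the dotted line at 1.16 to 2.90, and *Tgfa* crosses it. The 2.90, with the hybridization controls set equal, is a lower bound set by the floor.

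Shedding releases the ligands from the membrane, and the transcripts of its machinery were examined next. Of 19 genes, 2 passed the 2-fold rule as higher and 0 as lower. Over the list the median log2 ratio was 0.38, with 5 of the genes under the floor on both arrays. *Rhbdf2* encodes iRhom2, which carries the protease ADAM17 to the cell surface. It had 15.8 times the median on the array labelled Prom1+, against 3.68 times in the array labelled Prom1-, 4.29-fold higher by its single probe set, where the median fold of similarly bright probe sets was 1.76. *Frmd8*, whose product stabilizes iRhom proteins, had 9.80 and 4.25 times in the arrays labelled Prom1+ and Prom1-, 2.31-fold higher. Over the scalings the log2 ratio of *Rhbdf2* ran from 1.23 to 3.13 and that of *Frmd8* from 0.34 to 2.23, under 2-fold with the same trimmed mean, quantile normalization and loess.

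*Adam17*, the main sheddase of TGF-alpha, was chosen for mention after its values were seen. Its brightest probe set had 70.6 times the median on the array labelled Prom1+, against 36.2 times in the array labelled Prom1-, 1.95-fold higher, and the second had 31.3 and 16.5 times, 1.90-fold higher. The third probe set of *Adam17* reached the floor on neither array. For similarly bright probe sets the median folds were 1.49 beside the brightest and 1.76 beside the second. Over the scalings the log2 ratio of the brightest ran from 0.40 to 1.99. It was 0.42 with the same trimmed mean, 0.45 with quantile normalization and 0.40 with loess. The brightest transcripts of the list differed by little. *Adam10*, the main sheddase of EGF and betacellulin, had 101 and 89.9 times in the arrays labelled Prom1+ and Prom1-. The metalloprotease inhibitor *Timp3* had 103 times in the array labelled Prom1+, against 110 times in the array labelled Prom1-. Among similarly bright probe sets, 0.4% beside *Adam10* and 0.1% beside *Timp3* were at least 2-fold higher, so that a 2-fold higher value was seldom seen at such signals.

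Downstream of the receptors come adaptors and effectors. Of 34 genes, 28 had a probe set listed in the annotation used, which leaves 9211 of the 45101 probe sets unlisted. Of these 28, 5 were at least 2-fold higher and 1 at least 2-fold lower. Their median log2 ratio of 0.71 was near the 0.69 of all genes measured on both arrays, and it was 0.16 with the same trimmed mean, 0.05 with quantile normalization and -0.01 with loess. Of the higher genes, the transcription factor *Stat5b* had 31.6 and 11.6 times the median in the arrays labelled Prom1+ and Prom1- (2.73-fold). The others were the exchange factor *Vav2* (2.51-fold), the PI3-kinase subunit *Pik3cb* (2.07-fold), the adaptor *Nck1* (2.06-fold) and the kinase *Src* (2.04-fold). Beside the brightest probe sets of these 5 genes, 36.2% to 41.5% of similarly bright probe sets were at least 2-fold higher. With loess their log2 ratios were 0.15 to 0.60. Other probe sets of *Stat5b* and *Vav2* were under the floor on both arrays. Those of *Nck1* were 1.63-fold and 1.44-fold higher, and that of *Src* at least 1.17-fold higher. The lower gene was protein kinase C alpha (*Prkca*), with 0.899 times, under the floor, in the array labelled Prom1+, against 5.37 times in the array labelled Prom1-, at least 3.21-fold lower. This rests on 1 of its 3 probe sets, the others being under the floor on both arrays, and the log2 ratio was -0.68 with the floor of 200 and 0 with the mean over probe sets. The brightest were *Plcg1*, a phospholipase that ErbB receptors recruit, at 129 and 159 times in the arrays labelled Prom1+ and Prom1-, and the adaptor *Grb2*, at 82.9 and 74.2 times.

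For genes of receptor feedback and endocytosis the balance depended on the scaling. Among 33 genes, 4 passed the 2-fold rule as higher and 0 as lower as deposited, with a median log2 ratio of 0.39. With the same trimmed mean, quantile normalization and loess, 0 were higher and 2, 3 and 2 were lower, and the medians were -0.03, -0.07 and -0.14. *Socs4*, an inhibitor of receptor signalling, was 2.85-fold higher by its brightest probe set, at 22.1 and 7.76 times the median in the arrays labelled Prom1+ and Prom1-. Another of its probe sets was at least 2.77-fold lower, so its probe sets disagreed. The deubiquitinase *Usp8* was 2.61-fold, the phosphatase *Ptprj* 2.49-fold and the endosomal sorting gene *Hgs* 2.23-fold higher. *Errfi1* encodes MIG6, a feedback inhibitor that binds the kinase domain of the EGF receptor, and it was chosen for mention after its values were seen. It had 89.1 times the median on the array labelled Prom1+, against 176 times in the array labelled Prom1-, 1.98-fold lower, at a signal where 1.8% of probe sets were at least 2-fold lower. Its second probe set, with 1.43 and 6.03 times in the arrays labelled Prom1+ and Prom1-, was at least 3.60-fold lower. With the hybridization controls set equal the log2 ratio of the brighter probe set was 0.04, so the lower value depended on the scaling. The brightest of the list, the phosphatase *Dusp1*, had 175 and 234 times in the arrays labelled Prom1+ and Prom1-, and the endosomal *Rab7* had 145 and 173 times.

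Immediate early genes, which growth factors and also tissue dissociation induce, had a median log2 ratio of 0.06 as deposited. The median of all genes measured on both arrays was 0.69. Among 19 genes, 1 passed the 2-fold rule as higher and 0 as lower. Over the scalings the median of the list ran from -0.41 to 1.08, and 0 to 3 of its genes were at least 2-fold lower. *Junb* had 28.9 and 11.9 times the median in the arrays labelled Prom1+ and Prom1-, 2.43-fold higher. *Egr1* had 181 times in the array labelled Prom1+, against 251 times in the array labelled Prom1-, and *Fos* had 150 and 234 times in the arrays labelled Prom1+ and Prom1-. Beside these counts, 16.7% of all genes were at least 2-fold higher and 2.83% at least 2-fold lower. These shares are not a like base, because a gene with no measured signal cannot be called. A measured signal was present for 10793 of 18194 genes, but for 27 of 28 effectors, 31 of 33 feedback genes and 17 of 19 immediate early genes. For sheddases it was 14 of 19. Whether a pathway list is set apart by its count was therefore not tested. For sheddases, effectors, feedback genes and immediate early genes the number at least 2-fold higher ran from 1 to 12, 0 to 24, 0 to 24 and 0 to 11 over the scalings.

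**Figure D4:**
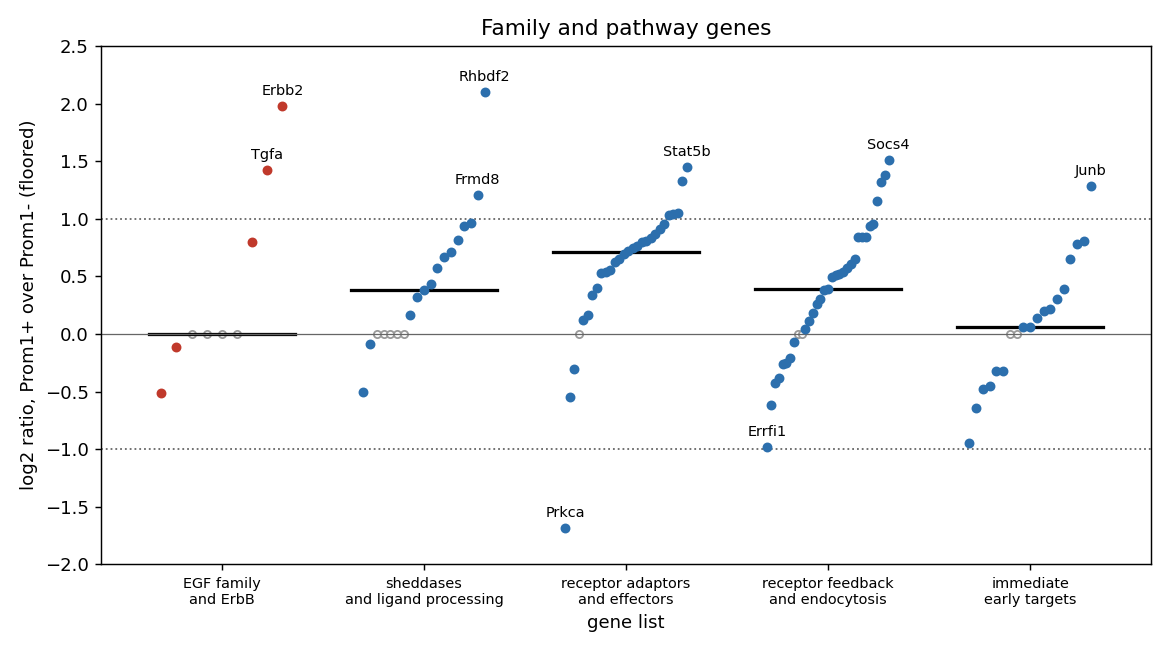
Log2 ratio of the array labelled Prom1+ over the array labelled Prom1- for each gene, by its brightest probe set, in the family and in 4 pathway lists. Filled points reached the floor on at least 1 array, open points on neither, black bars are medians and dotted lines mark 2-fold. *Erbb2*, *Tgfa* and *Rhbdf2* stand at 1.98, 1.43 and 2.10, while *Prkca* stands at -1.68 and *Errfi1* at -0.98.

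Transcripts of other brain cells are set beside *Egfr* and *Ereg*, the members that reached the floor only in the array labelled Prom1-. With 1 array per population, these values give no pattern shared between genes. Of 18 genes of pericytes and smooth muscle, 16 were at least 2-fold lower in the array labelled Prom1+, with summed signals of 502 and 1580 times the median in the arrays labelled Prom1+ and Prom1-. Among genes of microglia and macrophages 12 of 17 were lower, with sums of 137 and 311 times in the arrays labelled Prom1+ and Prom1-, and among fibroblast and meningeal genes 6 of 13 were lower, with sums of 67.8 and 373 times. Over the scalings 5 to 17 pericyte and smooth muscle genes, 0 to 15 microglial genes and 3 to 7 fibroblast genes were at least 2-fold lower. Astrocyte genes had sums of 236 and 265 times in the arrays labelled Prom1+ and Prom1-, with *Gfap* and *Aqp4* under the floor on both arrays and 3 of 14 genes lower and 2 higher. Oligodendrocyte and precursor genes had sums of 365 and 558 times in the arrays labelled Prom1+ and Prom1-, with *Olig2* and *Sox10* under the floor and 2 of 15 lower and 1 higher, and ependymal and choroid plexus genes 219 and 441 times, with *Foxj1* under the floor and 3 of 12 lower and 1 higher. Neuron genes had sums of 83.1 and 67.8 times in the arrays labelled Prom1+ and Prom1-, of which *Stmn2* alone gave 79.5 and 45.1 times, with *Tubb3* and *Rbfox3* under the floor on both arrays and 2 of 12 genes lower and 0 higher. Without *Stmn2*, the other 11 neuron genes summed to 3.52 and 22.7 times in the arrays labelled Prom1+ and Prom1-, so that the direction of the sum turned. As deposited, every other list of another cell type kept the lower sum in the array labelled Prom1+ without its brightest gene. The sums were 27.6 and 67.9 times for fibroblast and meningeal genes without *Ptgds* and 9.84 and 14.9 times for ependymal and choroid plexus genes without *Ttr* in the arrays labelled Prom1+ and Prom1-. For astrocyte genes without *Clu* they were close, at 144 and 154 times. Sums were not taken under the other scalings, so their direction there is not known. Beside the higher values of *Tgfa* and *Erbb2*, pan-endothelial genes had sums of 3004 and 3130 times in the arrays labelled Prom1+ and Prom1-, with 1 of 25 genes higher and 1 lower. Over the scalings 0 to 14 of them were higher and 1 to 3 lower, and their median log2 ratio ran from -0.50 to 1.07. The part of these cells in the values of *Egfr*, *Ereg*, *Tgfa* and *Erbb2* was not tested.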

How the data were processed

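RNA of CD31+ Prom1+ and CD31+ Prom1- cells was amplified and labeled with biotin and hybridized to Mouse Genome arrays. The authors set the target signal to 500 and used GeneSpring for normalization, and MAS5 is listed without a version among the submitters' processing notes. What they deposited are log2 values with a median of 0 on each array, and the lowest stands for 0.01 times the median. The genome build is not given in the sources used here.

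The floor, 100 where the target is 500, became 1.67 times the median by averaging the trimmed means (2% each side) of the arrays. Of 45101 probe sets, 34958 have 1 gene symbol in the platform annotation, for 18194 genes. The brightest probe set, by mean signal, stood for a gene. All 9 measured members were found by identifier in a RefSeq table of GRCm38.p6, used for names and neighbors. The 27 Bacillus control probe sets reached at most 0.234 times the median on the array labelled Prom1+, against 0.276 times in the array labelled Prom1-. No p-value was made.

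The members and lists were chosen with earlier results of these data known. Named were all members with every probe set, from each pathway list the genes past the 2-fold rule and the 2 brightest, and from marker lists the genes set beside a member. *Adam17*, *Errfi1*, *Epgn*, *Nrg3* and *Erbb4* were picked after their values were seen. Alternatives were floors of 50 and 200 and none, folds of 1.5 and 3, 5 scalings (loess span 0.2), the mean over probe sets, and leaving out _x_at and _s_at probe sets. Marker sums without the brightest gene were added after seeing the data. The rules were run on simulated data whose planted differences lay well above the floor, so differences near the floor were not covered. Python 3.11.15, numpy 2.4.6, pandas 2.3.3, statsmodels 0.14.6 and matplotlib 3.10.9 were used.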

Additional observations from a re-analysis of the deposited data

How the results depend on the processing

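By the 2-fold rule 2 of 9 family genes were higher in the array labelled Prom1+. The count was 1, *Erbb2* alone, with a fold of at least 3, the same trimmed mean, quantile normalization, loess, or the mean over the probe sets of a gene, where 3.91%, 4.75%, 3.70%, 3.24% and 13.8% of all genes were higher. It was 2 or 3 under the other 7 alternatives. The count of genes at least 2-fold lower was 0. It was 2 with the floor of 50, *Ereg* and *Egfr*, and 3 with no floor, with *Btc* added, where 4.55% and 18.6% of all genes were lower, and 0 under the other 10. These bounds come from signals under the floor. *Tgfa* left the higher count in the settings with *Erbb2* alone. Its fold as deposited was 2.69. Its log2 ratio was 0.88 with the same trimmed mean, 0.68 with quantile normalization, 0.52 with loess and 0 with the mean over probe sets. The same trimmed mean shifts all log2 values of an array alike. Relative to the median of the genes measured on both arrays, *Tgfa* stood at 0.73 as deposited and 0.72 with the same trimmed mean. It stood at 0.58 with quantile normalization and 0.49 with loess. Single ratios and list values moved by over 0.54, or for counts by over 1.5 times, in 188 of 836 cases. Some of these cases could not move, since the fold threshold changes no ratio and many ratios under the floor stay at 0. No called value changed sign. The signal over background limits the 14 family probe sets that never reached the floor, of which 5 exceeded the Bacillus controls on both. No paired analysis was possible because each population has 1 array and the labels give no replicate numbers.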
